A study of Mus musculus with 12 samples.

Results

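The comparison described here set hearts of wild-type mice given an adeno-associated virus (AAV) carrying VEGF-B against hearts of wild-type mice given an AAV with a scramble sequence, chosen by their sample titles. It takes 5 of the 12 hearts in the series, 2 with the VEGF-B virus (WT_VEGFB) and 3 with the scramble virus (WT_Scramble), each on its own bead array of labelled cRNA. The mice were adult C57Bl/6J males, and the VEGF-B virus was injected into the peritoneal cavity. The labels give no dose, time after injection or age in numbers, and do not say whether the wild-type mice carried the Cre or the floxed alleles of the other genotype or received tamoxifen. The other 7 hearts, used here for the shared spread and for 1 test of difference, came from Cdh5-Cre-ERT2; Flt1 flox/flox mice treated with tamoxifen, in which VEGFR1 is deleted from endothelial cells. Of those, 4 had the VEGF-B virus (VEGFR1del_VEGFB) and 3 the scramble virus (VEGFR1del_Scramble).

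VEGF-B is a growth factor of the VEGF family that is abundant in heart muscle. It binds VEGFR1, the product of Flt1, and the co-receptor neuropilin 1, and unlike VEGF-A it does not bind VEGFR2, the product of Kdr, which carries most of the growth signal in endothelium. VEGFR1 also takes up VEGF-A with high affinity and so works as a decoy for it. In the heart VEGF-B is known for growth of coronary vessels and has been linked to the handling of fatty acids, the main fuel of the adult heart muscle.

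Wild-type hearts with VEGF-B virus had higher levels of genes of sprouting endothelium, Notch signalling, pericytes and vascular basement membrane. These groups share members, and each called basement membrane gene was also counted among the sprouting genes. A smaller set was lower, led by Angptl4, Ucp3 and Pdk4, genes that a fasting heart switches on. Of 14240 genes tested, 284 differed (1.99%), 249 higher (1.75%) and 35 lower (0.246%), at an adjusted p under 0.05 from limma with Benjamini-Hochberg adjustment. In 284 of 284 the WT_VEGFB and WT_Scramble values did not overlap, which was also so for 17% of all genes in the higher and 16.9% in the lower direction. An unadjusted limma p under 0.05 was found for 2201 of the 14240 genes, the share to set beside such counts in the lists below. The median log2 fold change was 0.77 over the genes that rose and -0.70 over those that fell, against -0.02 over all genes tested. A rise above 2-fold was seen for 51 of them and a fall beyond 2-fold for 6. The counts varied with each array. They were 12 and 4 without WT_VEGFB replicates 1 and 2, and 161, 27 and 53 without WT_Scramble replicates 1, 2 and 3. Of 121 calls named below, those of Esm1, Ccn5 and Ssu2 (3) held without each of the 5 arrays in turn. The authors had normalized the WT_VEGFB and the WT_Scramble arrays in different sets, and with the set as a fixed block 3 genes were called, of which 1, Esm1, was among the 284 (2.37, adjusted p = 0.0341), so 120 of the 121 named calls were lost.

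All values below are log2 signals after normalization over the 12 arrays, or differences between such signals (log2 fold changes, VEGF-B virus minus scramble virus) with their standard error (SE). The median raw signal of the 5 arrays lay between 98.7 and 111.5, with 16797 to 18210 probes detected per array. On the first principal component of these 5 arrays, with 44.1% of the variance, WT_VEGFB lay at -19.7 and -19.4 and WT_Scramble at 8.3, 16.5 and 14.3. Whether the authors' sets were batches is not stated. In the wild-type hearts set and virus coincide, and the block above takes the set difference from the VEGFR1del_Scramble group, in which replicates 1 and 2 share the set of WT_Scramble and replicate 3 that of WT_VEGFB. That last library, labelled VEGFR1del_Scramble replicate 3, went against its label, with a log2 signal of 11.56 for Flt1, against 8.19 and 8.46 in replicates 1 and 2 of its group. Without that library 397 genes were called in wild-type hearts, among them 283 of the 284.

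**Figure D1:**
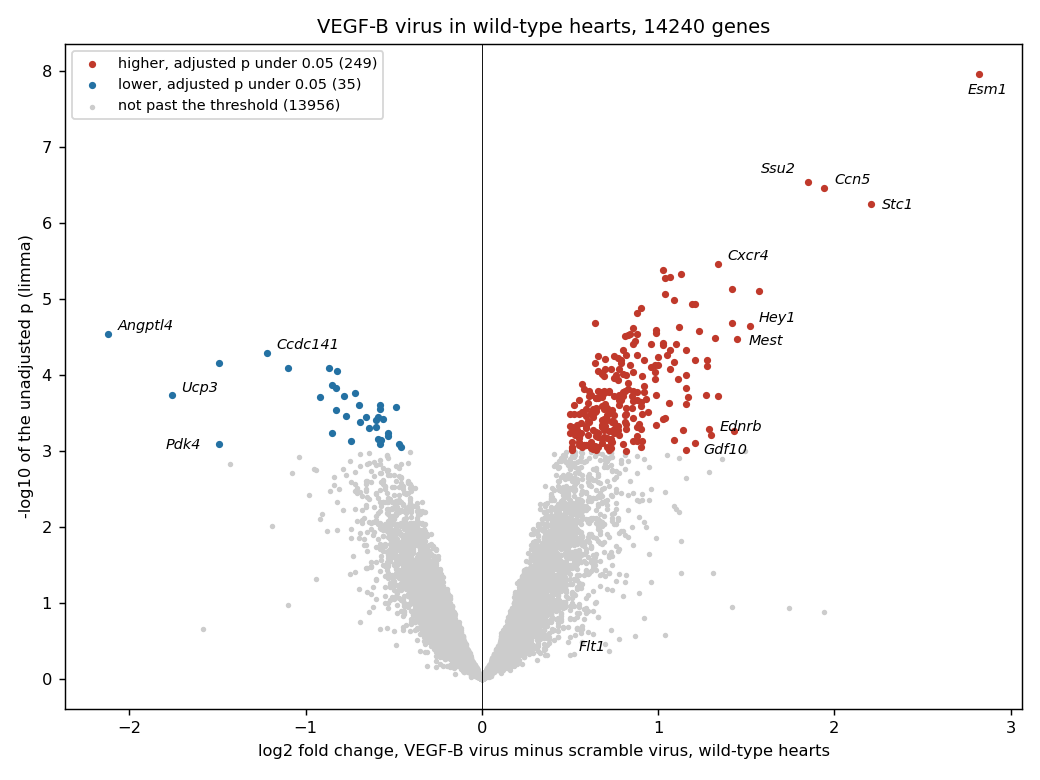
Each dot is 1 of 14240 genes, with its log2 fold change (VEGF-B virus minus scramble virus, wild-type hearts) on the x axis and -log10 of its unadjusted limma p on the y axis. Red dots are the 249 genes called higher and blue dots the 35 called lower, with Esm1 at 2.82 and Angptl4 at -2.12 at the ends.

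The VEGF family itself was read first. Vegfb gave 12.71 and 12.79 with VEGF-B virus, against 12.72, 12.90 and 12.74 with scramble virus, and the groups overlapped. Whether the Vegfb probe reads the transcript of the virus is not given, so the transgene was not measured here. Nrp1, the neuropilin that binds VEGF-B, gave 11.86 on both WT_VEGFB arrays, against 11.26, 11.31 and 11.36 in WT_Scramble, and rose (0.55, SE 0.13, adjusted p = 0.0429). Of 10 measured ligands, receptors and co-receptors it was the 1 called, against 1.75% of all genes called higher, and their median was 0.00. Without the library that went against its label 2 were called, Nrp1 and Vegfd.

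The other members did not pass the test over the 12 arrays. Vegfd, a ligand of VEGFR3, gave 6.58 and 6.60, against 5.84, 5.71 and 6.05 with scramble virus (0.72, SE 0.28, adjusted p = 0.229, and 0.0381 without that library). Nrp2, the neuropilin of lymphatic and venous endothelium, gave 4.87 and 5.09, against 4.38, 4.60 and 4.37 (0.53, adjusted p = 0.186). The detection floor of the 5 arrays lay between 4.80 and 4.93, so the size of this difference says little. Flt1 gave 11.51 and 11.22, against 10.79, 10.90 and 10.91, with groups that did not overlap. Its difference was 0.50 (SE 0.69, adjusted p = 0.784), with an SE set largely by the library named above, since it was 0.17 without it (adjusted p = 0.161). Vegfa gave -0.22, Vegfc 0.03 and Pgf, the placental growth factor gene, -0.12. The probes of Kdr and of Flt4, the gene of VEGFR3, read between 4.59 and 4.95 on the 5 arrays, near the detection floor, so they say little of these receptors.

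Esm1, which encodes a proteoglycan secreted by endothelial tip cells at the front of vessel sprouts, changed most. Its log2 signal was 8.70 and 8.75 with VEGF-B virus, against 6.05, 5.98 and 5.67 with scramble virus. Both WT_VEGFB hearts were far above the 3 WT_Scramble hearts, by 2.82 (SE 0.22, adjusted p = 0.000156), or 7.08-fold. Its promoter from RefSeq (GRCm38.p6), 250 bases before to 50 after the start, is shown because it belongs to the most changed gene. It lies at chr13:113209409-113209708 on the plus strand, and capitals mark GGAA, the core of sites for ETS factors, on either strand.
Esm1: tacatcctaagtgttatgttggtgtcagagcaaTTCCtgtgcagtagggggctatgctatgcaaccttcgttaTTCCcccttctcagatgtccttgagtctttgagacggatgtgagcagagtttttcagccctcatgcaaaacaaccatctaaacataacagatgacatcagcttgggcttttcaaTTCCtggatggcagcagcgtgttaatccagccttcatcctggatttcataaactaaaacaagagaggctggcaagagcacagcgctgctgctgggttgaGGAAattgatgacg
GGAA occurs 4 times there, and 96.0% of 32851 promoter windows of this length hold it at least once.

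Of 22 measured genes of tip cells and sprouting, 11 rose and none fell, with a median of 0.81, against 1.75% of all genes called higher. This list and those below were chosen with earlier results of these data known, so such shares are no test. Besides Esm1 the called genes were Cxcr4, Mcam, Unc5b, Nid2, Pdgfb, Sparc, Aplnr, Col4a1, Col4a2 and Nid1. Cxcr4, a chemokine receptor of tip cells and arterial endothelium, gave 6.46 and 6.67, against 5.23, 5.34 and 5.12 (1.34, SE 0.17, adjusted p = 0.00838). Unc5b, a netrin receptor of tip cells and arteries, gave 8.08 and 7.81, against 6.95, 6.62 and 6.63 (1.21, adjusted p = 0.017). Aplnr, the receptor of apelin, gave 9.34 and 9.49, against 8.32, 8.28 and 8.68 (0.98, adjusted p = 0.0179). The WT_VEGFB values were above the WT_Scramble values for 20 of the 22 genes, against 17% of all genes. With any 1 of the arrays left out, the median of the list stayed between 0.70 and 0.94.

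Notch signalling sets which endothelial cells sprout and which take an arterial fate. Of 13 measured receptors, ligands, regulators and targets, 7 rose and none fell, with a median of 0.64, against 1.75% of all genes called higher. Hey1, a transcriptional repressor and direct Notch target, gave 9.88 and 10.09, against 8.76, 8.41 and 8.22 with scramble virus (1.52, SE 0.24, adjusted p = 0.0145). Nrarp, a target that feeds back on the pathway, gave 9.04 and 9.37, against 8.08, 8.16 and 7.98 (1.13, SE 0.15, adjusted p = 0.00838). Both genes were higher in each WT_VEGFB heart than in each WT_Scramble heart. The endothelial receptors Notch1 (0.83) and Notch4 (0.86), the mural cell receptor Notch3 (0.68), the ligand Jag2 (0.63) and the target Heyl (0.91) also rose. Of the listed members, 7 had no probe that passed the detection filter, among them Jag1, Notch2 and Rbpj. The list median stayed between 0.55 and 0.74 with 1 of the arrays left out.

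Genes of endothelial identity were higher as a group. Of 21 pan-endothelial genes, 11 rose and none fell (median 0.69), against 1.75% of all genes called higher. The WT_VEGFB values were above the WT_Scramble values for 19, against 17% of all genes. The called genes were the transcription factor genes Sox17 (1.16) and Sox18 (0.99), the surface and junction genes Cd93 (0.87), Esam (0.79), Emcn (0.73), Eng (0.71), Icam2 (0.69) and Mmrn2 (0.59), the secreted factor Egfl7 (0.78), Rasip1 (0.73) and the nitric oxide synthase Nos3 (0.82). Cd93 gave 11.51 and 11.57, against 10.74, 10.58 and 10.68. In whole hearts, more cells of a type and more RNA per cell cannot be told apart. The mean over 7 endothelial markers was 10.59 and 10.49, against 9.96, 9.84 and 9.95, and over 6 pericyte markers 8.91 and 8.84, against 8.24, 8.11 and 8.35. Of the 7 endothelial markers 7, and of the 6 pericyte markers 6, were higher in both WT_VEGFB hearts than in any WT_Scramble heart, against 17% of all genes. The part of these markers in the other vascular genes was not tested. The mean over 6 cardiomyocyte markers lay between 13.54 and 13.59 on all 5 arrays. No marker of adipocytes, mesothelium or lung epithelium passed the detection filter.

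Among endothelial subtypes, capillary genes held 3 that rose of 10 (median 0.47), arterial genes 4 of 13 (0.28) and venous genes 2 of 10 (0.36). None of 4 endocardial markers (median -0.02, from -0.64 to 0.41) or of 5 lymphatic endothelial markers (median -0.03) was called. The mean over the endocardial markers was 7.30 and 7.49, against 7.65, 7.55 and 7.18, and over the lymphatic ones 7.12 and 7.01, against 7.17, 7.05 and 6.98. Over all genes tested 1.75% were called higher. The capillary genes were Gpihbp1 (0.72), Fabp5 (0.90, near the detection floor in WT_Scramble) and Aqp1, the water channel of microvessels. Aqp1 gave 12.46 and 12.68, against 11.89, 11.96 and 12.07 (0.59, SE 0.13, adjusted p = 0.0348). Rgcc, another capillary gene, missed the threshold (0.50, adjusted p = 0.0642). The arterial genes were Hey1, Cxcr4, Unc5b and Sox17, and the venous ones Aplnr and Ephb4 (0.58). Of the angiopoietin, apelin and sphingosine genes, Aplnr rose, and the angiopoietin receptor genes Tie1 (0.54) and Tek (0.44) and the ligand Angpt2 (0.67) had adjusted p from 0.0799 to 0.0967. Of 6 Gimap genes, which encode GTPases of lymphocytes and endothelium, 3 rose, Gimap1 (0.69), Gimap5 (0.92) and Gimap6 (0.90).

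Guidance receptors steer axons and vessels alike. Of 18 measured guidance genes 4 rose, against 1.75% of all genes called higher. They were Unc5b, Plxnd1, the semaphorin receptor gene of endothelium (0.92), Ephb4 and Epha2. Epha2 was not detected in WT_Scramble, where it read 4.70, 4.85 and 4.44, against 5.65 and 5.88 with VEGF-B virus. It was at least 1.82-fold higher (adjusted p = 0.0153), where the bound sets the mean of the detected group against the detection floor of each array. Without the library that went against its label, 6 guidance genes were called.

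Pericytes wrap capillaries and are recruited by PDGF-B from the endothelium. Pdgfb gave 10.52 and 10.84, against 9.70, 9.59 and 9.49 with scramble virus (1.09, SE 0.19, adjusted p = 0.0171). Pdgfrb, its receptor on pericytes, gave 8.48 and 8.36, against 7.42, 7.28 and 7.60 (0.99, SE 0.16, adjusted p = 0.0145). Both were higher in each WT_VEGFB heart, as were 12 of 12 measured genes of this list, of which 7 rose (median 0.69). Over all genes tested, 17% were higher in each WT_VEGFB heart and 1.75% were called higher. The other called members were Mcam (1.21), the potassium channel gene Kcnj8 (0.88), Higd1b (0.88), Vtn (0.70) and Notch3. Pdgfb and Mcam were also counted in the tip cell list, and Notch3 in the Notch list. The pericyte genes Cspg4 (0.52, adjusted p = 0.0778), Rgs5 (0.44) and Abcc9 (0.35) did not pass.

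Contractile genes of smooth muscle had a median of -0.06. None of 10 was called by limma, against 1.75% of all genes called higher and 0.246% lower. That count does not set them apart from all genes. At an unadjusted p under 0.05 there were 0, against 2201 of all 14240 genes. Of 14 fibroblast genes, Thy1, a surface protein of fibroblasts and other cells, rose (0.75, SE 0.16, adjusted p = 0.0319), and the median was -0.05. Pdgfra, a defining fibroblast receptor, gave 8.43 and 8.48, against 8.80, 9.08 and 9.01 (-0.51, adjusted p = 0.109), lower in both WT_VEGFB hearts but short of the threshold.

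**Figure D2:**
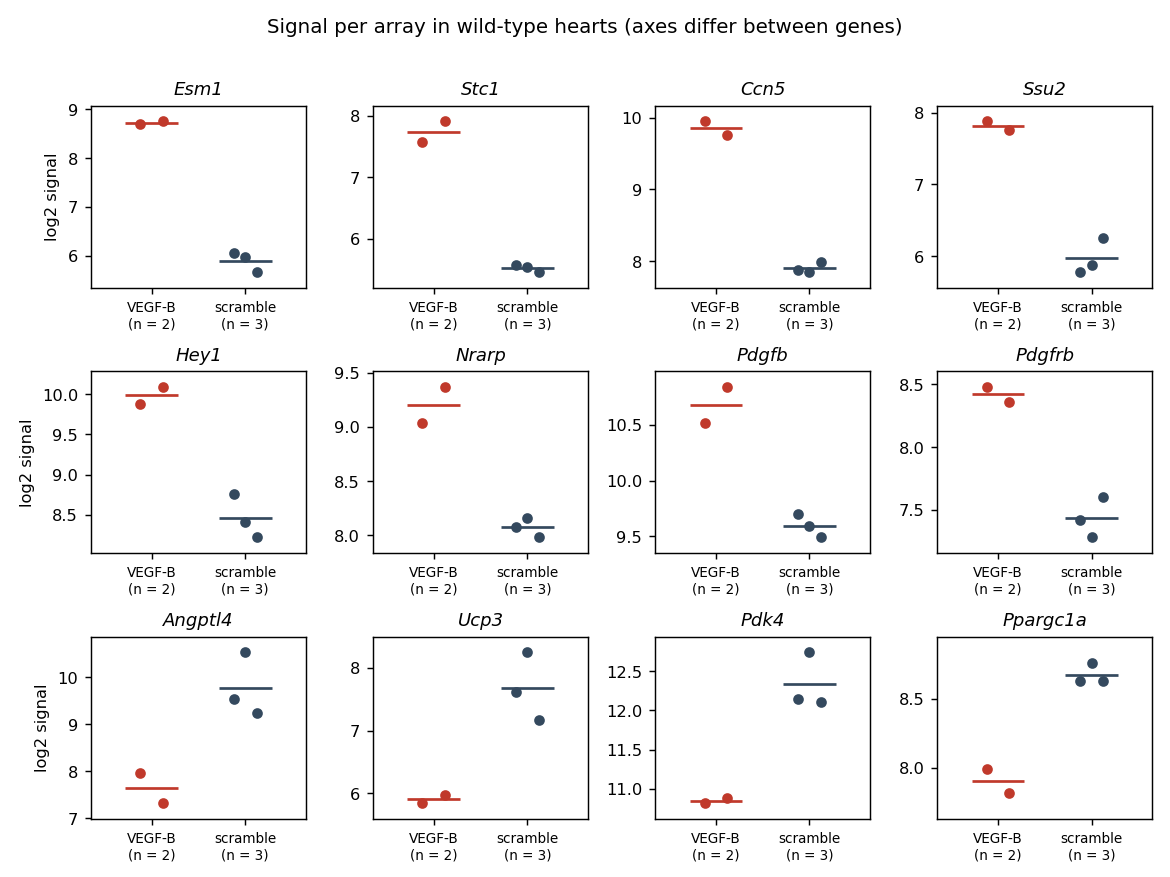
Each dot is the log2 signal of a gene in 1 wild-type heart, in red for the 2 hearts with VEGF-B virus and in dark blue for the 3 with scramble virus, with a line at the mean of each group. In all 12 genes shown the groups do not overlap, with higher values under VEGF-B virus for 8 genes and lower ones for Angptl4, Ucp3, Pdk4 and Ppargc1a.

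Basement membrane is the sheet of collagen IV, laminin and nidogen that endothelium and pericytes share. Of 17 measured components 5 rose and none fell (median 0.51), against 1.75% of all genes called higher. These 5 are also among the called genes of the tip cell list, so they add no call to it. Col4a1 gave 12.80 and 12.87, against 11.99, 11.99 and 11.79 (0.92, SE 0.16, adjusted p = 0.017). Col4a2, whose chain joins that of Col4a1 in 1 molecule, gave 12.32 and 12.56, against 11.69, 11.61 and 11.57 (0.82, SE 0.14, adjusted p = 0.0169). Both were higher in each WT_VEGFB heart. The others were the nidogens Nid1 (0.51) and Nid2 (1.17) and Sparc (1.03), which binds collagen IV.

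The promoters of Col4a1 and Col4a2 are shown because both genes rose and start from a shared stretch on opposite strands. In RefSeq (GRCm38.p6) the windows are chr8:11312777-11313076 on the minus strand for Col4a1 and chr8:11312555-11312854 on the plus strand for Col4a2. Capitals mark the 78 bases that both windows hold.
Col4a1: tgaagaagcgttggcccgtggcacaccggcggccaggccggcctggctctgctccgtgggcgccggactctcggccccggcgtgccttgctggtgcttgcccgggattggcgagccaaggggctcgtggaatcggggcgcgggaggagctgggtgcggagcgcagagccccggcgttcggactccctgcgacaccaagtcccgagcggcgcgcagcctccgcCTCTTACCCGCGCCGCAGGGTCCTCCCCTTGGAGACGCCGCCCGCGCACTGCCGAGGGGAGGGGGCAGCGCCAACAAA
Col4a2: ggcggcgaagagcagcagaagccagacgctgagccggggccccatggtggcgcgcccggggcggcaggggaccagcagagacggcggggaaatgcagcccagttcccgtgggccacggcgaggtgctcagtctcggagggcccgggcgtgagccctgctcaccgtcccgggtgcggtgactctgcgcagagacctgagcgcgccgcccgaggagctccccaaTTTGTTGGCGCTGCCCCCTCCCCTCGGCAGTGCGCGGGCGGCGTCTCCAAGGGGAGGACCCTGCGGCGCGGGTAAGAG
None of 16 interstitial collagens and crosslinkers was called by limma, with 2 at an unadjusted p under 0.05 (median 0.23). Col1a1, the main chain of fibrillar collagen, gave 0.72 (SE 0.32, adjusted p = 0.295), and Col6a1 came nearest, at 0.49 (adjusted p = 0.0989).

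The list of matricellular and secreted regulators held both the second and the third of the largest named rises. Stc1, a secreted glycoprotein hormone, gave 7.57 and 7.91, against 5.58, 5.54 and 5.46 (2.21, SE 0.24, adjusted p = 0.00199), or 4.64-fold. Ccn5, a matricellular protein of the CCN family, gave 9.95 and 9.76, against 7.88, 7.85 and 7.99 (1.94, SE 0.21, adjusted p = 0.00162). With Sparc these were the 3 that rose of 19 genes in this mixed list (median 0.39), against 1.75% of all genes called higher. Of 20 genes of TGF-beta and BMP signalling, 3 rose and 1 fell (median 0.21), against 1.75% of all genes called higher and 0.246% lower. Gdf10, a BMP-like ligand, gave 7.64 and 7.65, against 6.81, 6.42 and 5.81 (1.30, SE 0.29, adjusted p = 0.0379). Id1, a BMP target in endothelium, rose by 1.04 and Eng, a BMP co-receptor, by 0.71. Inhba, the activin A subunit, was not detected with VEGF-B virus, where it read 4.73 and 4.64, against 5.48, 5.56 and 5.54 with scramble virus, and was at least 1.63-fold lower (adjusted p = 0.0365).

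Of 13 secreted endothelial factors Pdgfb and Nos3 rose, against 1.75% of all genes called higher. None of 7 ErbB ligands and receptors was called by limma, with 2 at an unadjusted p under 0.05 (median 0.00, smallest adjusted p 0.167, for Btc). Of 8 imprinted growth genes Mest rose, with 6.60 on both WT_VEGFB arrays, against 5.00, 5.11 and 5.35 in WT_Scramble (1.45, SE 0.24, adjusted p = 0.0151). Its 3 probes gave 1.45, 1.36 and 1.68. The median over the imprinted genes was 0.00.

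**Figure D3:**
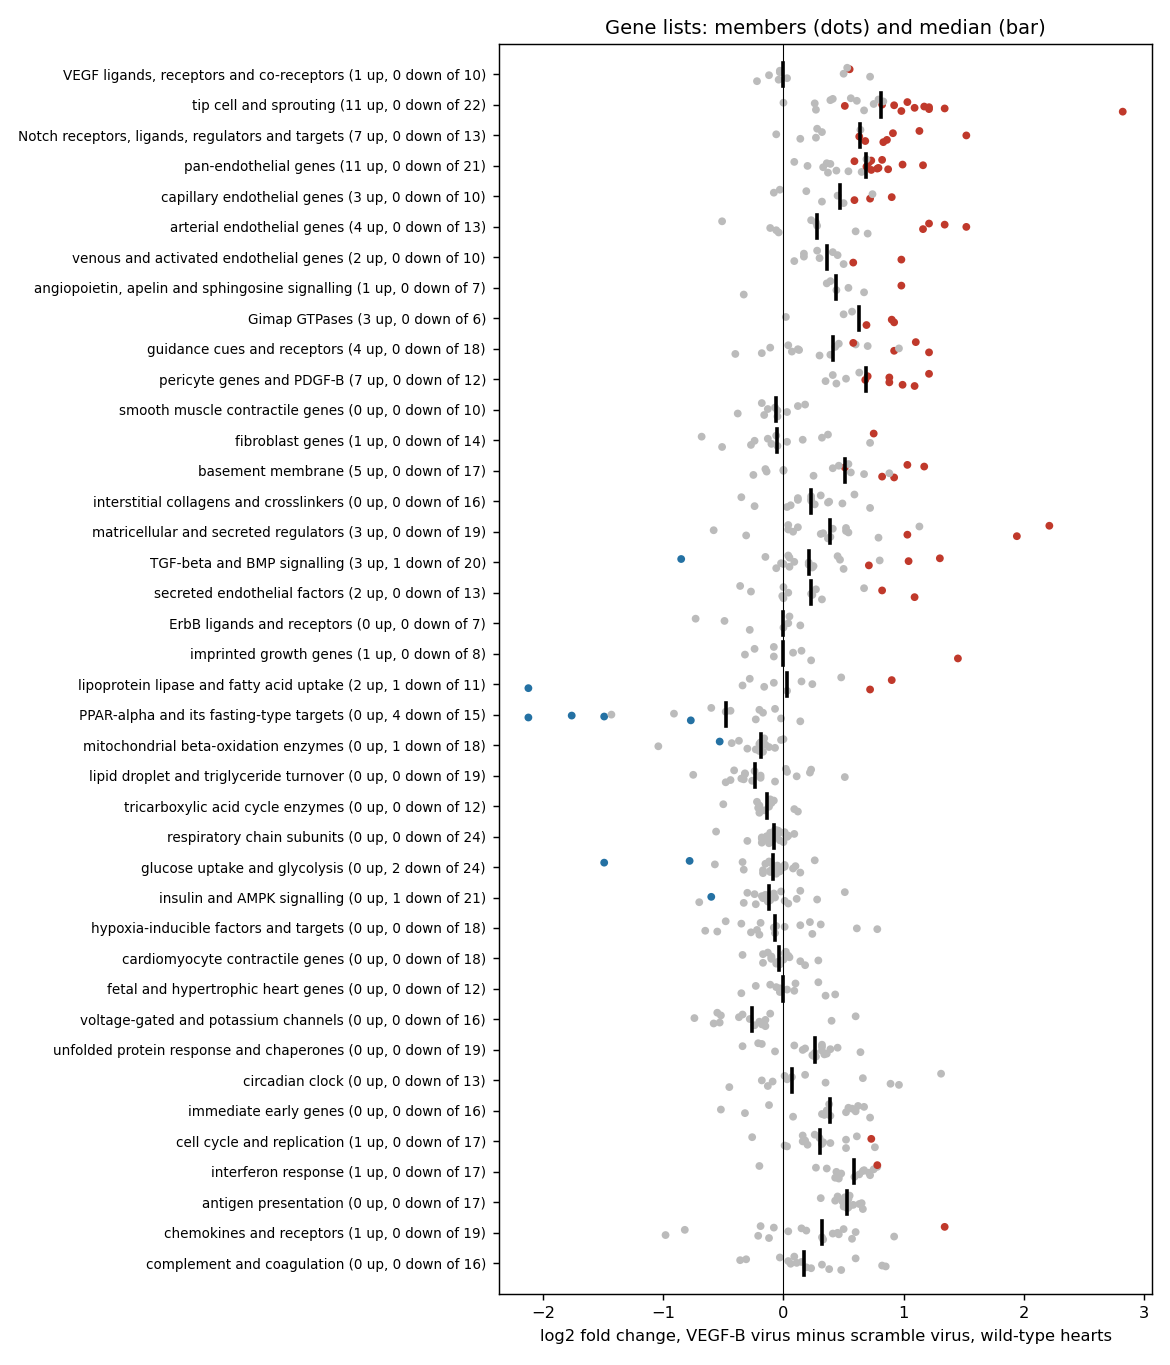
Each row is a gene list with its measured members as dots on the log2 fold change axis (VEGF-B virus minus scramble virus, wild-type hearts), red where called higher, blue where called lower and grey where not called, and a black bar at the list's median. Vascular lists lie to the right, with the tip cell median at 0.81, and PPAR-alpha targets to the left, with a median of -0.48.

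Other large rises fell outside these lists. Ssu2 gave 7.88 and 7.76, against 5.78, 5.87 and 6.25 (1.85, SE 0.19, adjusted p = 0.00162). Exoc3l rose by 1.32, Sez6l2 by 1.28, the protocadherin Pcdh17 by 1.27, the retinol-binding protein gene Rbp7 by 1.19, Sema7a, a membrane-bound semaphorin, by 1.16, the serpin Serpini1 by 1.16, Ldb2, a cofactor of LIM-domain factors, by 1.14, Tmc6 by 1.09 and BC028528 by 1.42. Rbp7 gave 10.86 and 10.75, against 9.38, 9.99 and 9.48. Il34, a cytokine that signals through the receptor of CSF-1, was not detected in WT_Scramble and was at least 1.73-fold higher (adjusted p = 0.0145). The histone genes H2ac12 (1.34) and H2ac7 (1.16) also rose. They are near-identical copies, so the probes may share signal, and H2ac15, H2ac22 and H2ac24 read 1.12, 1.09 and 1.12 without passing (adjusted p 0.124, 0.116 and 0.0548).

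Further groups among the called genes were put together after their values were seen, so their counts carry no weight as a test. All of the SoxF factors, which specify endothelium, were among them. Sox7 gave 9.74 and 9.92, against 8.98, 8.96 and 8.91 (0.88), beside Sox17 and Sox18. Nostrin, which binds endothelial nitric oxide synthase, gave 8.90 and 9.27, against 7.95, 7.69 and 7.79 (1.28, adjusted p = 0.017), beside Nos3 at 0.82. Receptors of vasoactive ligands were the endothelin receptor Ednrb, with 10.36 and 10.46, against 9.25, 9.16 and 8.94 (1.29), the thromboxane receptor Tbxa2r (0.98), the nucleotide sugar receptor P2ry14 (0.85) and the thrombin receptor F2r (0.51).

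Called genes of actin and filament proteins, likewise picked after their values were seen, were the actin bundler Fscn1 (1.21), the intermediate filament genes Nes (1.04) and Vim (0.64), Tagln2 (0.86), the thymosins Tmsb10 (0.80) and Tmsb4x (0.60), the nonmuscle myosin Myh9 (0.69) and Marcks (0.55). Regulators of small GTPases were Plekhg2 (1.05), Mcf2l (1.04), Arap3 (0.75), Elmo1 (0.72), Arhgap29 (0.59), Rapgef3 (0.59) and Dock6 (0.58). Among transcription regulators Hlx gave 1.09, Msx1 1.07, the cAMP-responsive Crem 1.07, Gata2 0.71, Ets2 0.68 and Hdac7 0.54. Sulfotransferases of glycan chains were Chst15 (0.88), Hs3st3b1 (0.83), Chst1 (0.65) and Chst7 (0.59). Fscn1 gave 7.92 and 8.62, against 7.16, 6.97 and 7.05, the widest gap between WT_VEGFB replicates among the genes of this paragraph.

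Of the 26 named genes that fell, 7 belong to the lists on fuel use and 19 do not, and 137 genes of those lists were tested. Angptl4, a secreted inhibitor of lipoprotein lipase that rises in fasting, gave 7.96 and 7.33 with VEGF-B virus, against 9.54, 10.53 and 9.24 with scramble virus. Both WT_VEGFB hearts were below each WT_Scramble heart, by -2.12 (SE 0.34, adjusted p = 0.0145). Lipoprotein lipase frees fatty acids from circulating triglyceride on the capillary wall, where GPIHBP1 anchors it. Gpihbp1 gave 10.91 and 10.97, against 10.15, 10.12 and 10.37, and rose (0.72, SE 0.14, adjusted p = 0.0227). Lpl itself gave 14.40 and 14.38, against 14.37, 14.29 and 14.41, and the groups overlapped (0.03, SE 0.10). The fatty acid binding protein Fabp5 rose (0.90, SE 0.18), and Fabp3, the form of heart muscle, gave 0.15 (adjusted p = 0.55). Fabp5 was detected on 1 of the 3 WT_Scramble arrays, so the size of its rise is uncertain. Of 11 genes of lipase and uptake, 2 rose and 1 fell, with a median of 0.03. Over all genes tested 1.75% were called higher and 0.246% lower.

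PPAR-alpha is a nuclear receptor that switches on fatty acid use in fasting. Of 15 measured genes of the receptor's partners and targets, 4 fell and none rose (median -0.48), against 0.246% of all genes called lower. For 12 both WT_VEGFB hearts were lower than any WT_Scramble heart, against 16.9% of all genes. The list was chosen with earlier results of these data known, so these shares are no test. Besides Angptl4, Ucp3, a mitochondrial carrier, gave 5.85 and 5.97, against 7.61, 8.24 and 7.17 (-1.76, SE 0.34, adjusted p = 0.023). Pdk4, a kinase that restrains glucose oxidation, gave 10.82 and 10.88, against 12.15, 12.74 and 12.11 (-1.49, SE 0.34, adjusted p = 0.0446). Ppargc1a, a coactivator of mitochondrial genes, gave 7.99 and 7.82, against 8.63, 8.76 and 8.63 (-0.77, SE 0.16, adjusted p = 0.0293). For Angptl4, Ucp3 and Pdk4 the WT_Scramble replicate 2 was the highest of the 5 hearts. The call of Angptl4 was lost without WT_VEGFB replicate 1 or 2 (adjusted p = 0.0747 and 0.139), that of Ucp3 without any 1 of the 5 wild-type arrays other than WT_Scramble replicate 3, and that of Pdk4 without any 1 of the 5, while the list median stayed between -0.65 and -0.44. Acot1, a thioesterase gene induced by PPAR-alpha, missed the threshold, with 10.20 and 9.07, against 10.90, 11.43 and 10.87 (-1.43, SE 0.36, adjusted p = 0.0602). Ppara itself had no probe past the detection filter.

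The promoter of Ucp3 is shown because it holds AGGTCA, the half-site of PPAR and other nuclear receptors, more than once. It lies at chr7:100472741-100473040 on the plus strand (RefSeq, GRCm38.p6), with AGGTCA on either strand in capitals.
Ucp3: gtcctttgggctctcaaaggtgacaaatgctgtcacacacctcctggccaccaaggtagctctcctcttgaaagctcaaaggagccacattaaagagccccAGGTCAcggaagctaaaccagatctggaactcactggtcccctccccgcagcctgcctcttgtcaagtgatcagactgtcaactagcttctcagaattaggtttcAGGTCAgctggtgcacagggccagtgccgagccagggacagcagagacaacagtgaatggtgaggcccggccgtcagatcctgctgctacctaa
The motif occurs 2 times there, and 16.3% of 32851 promoter windows hold it at least once. Promoter windows were listed for 20 of the 30 largest named rises and for 23 of the 26 named falls, and AGGTCA stood in those of 2 and of 1 of them.

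Beta-oxidation breaks fatty acids down in mitochondria. Of 18 measured enzymes and carriers 1 fell and none rose, against 0.246% of all genes called lower, and the median was -0.19. For 14 both WT_VEGFB hearts were lower than any WT_Scramble heart, against 16.9% of all genes. The list median stayed between -0.24 and -0.15 with 1 of the arrays left out, but it depended on the processing. With scaling to the same median, which moved the median of all genes to 0.12, it was -0.05. With the authors' set as a fixed block it was 0.07. The called gene was Eci2, an enoyl-CoA isomerase, with 9.34 and 9.39, against 9.79, 10.07 and 9.82 (-0.53, SE 0.12, adjusted p = 0.0364). Hadha, a subunit of the trifunctional protein, missed the threshold, with 7.28 and 7.34, against 8.34, 8.64 and 8.09 (-1.04, SE 0.25, adjusted p = 0.0536). Acaa2 (-0.43) and Acadl (-0.30) had adjusted p of 0.197 and 0.276, and the medium-chain enzyme gene Acadm gave -0.07.

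**Figure D4:**
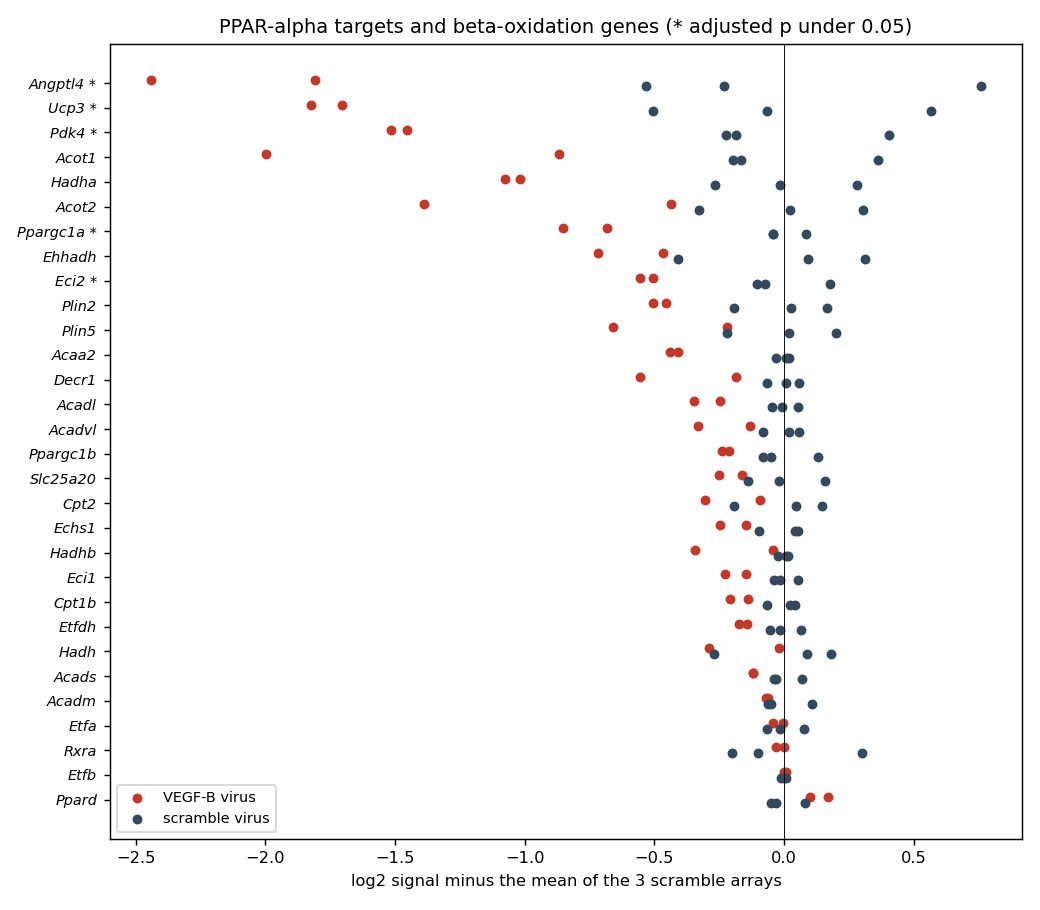
Each row is a measured gene of the PPAR-alpha or beta-oxidation list, and each dot is 1 heart's log2 signal minus the mean of the 3 scramble-virus hearts, red for VEGF-B virus and dark blue for scramble virus. Angptl4, Ucp3 and Pdk4 lie far to the left under VEGF-B virus, and most enzymes of beta-oxidation lie within 0.5 of the scramble-virus mean.

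Other parts of energy metabolism had few or no called genes. None of 19 genes of lipid droplets and triglyceride turnover (median -0.24), of 12 of the tricarboxylic acid cycle (-0.14) or of 24 subunits of the respiratory chain (-0.08) was called by limma. At an unadjusted p under 0.05 these lists held 7, 0 and 1, against 2201 of all 14240 genes. Both WT_VEGFB hearts were lower than any WT_Scramble heart for 9, 5 and 5 of their genes, against 16.9% of all genes. They were higher for 2, 0 and 0, against 17%. Without the library that went against its label Gpam, an enzyme of triglyceride synthesis, was called (-0.75, adjusted p = 0.0348, against 0.298 with it). Of 24 genes of glucose uptake and glycolysis Pdk4 and Tbc1d4 fell (median -0.09), against 0.246% of all genes called lower. Tbc1d4, which holds back the glucose transporter of muscle until insulin acts, gave 5.95 and 5.54, against 6.75, 6.32 and 6.50 (-0.78, SE 0.15, adjusted p = 0.023). Of 21 genes of insulin and AMPK signalling Prkaa2, a catalytic subunit of AMPK, fell, with 8.37 and 8.38, against 8.94, 9.11 and 8.86 (-0.60, SE 0.13, adjusted p = 0.0311). None of 18 hypoxia-inducible factors and targets was called, with 6 at an unadjusted p under 0.05. Adm, the vasodilator adrenomedullin, gave 0.61 (adjusted p = 0.055, and 0.0273 without that library), and the oxygen sensors Egln3 and Egln1 gave -0.65 and -0.55 (adjusted p 0.0799 and 0.0889), so the nearest members lay on both sides of 0.

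The other named falls lay outside the lists on fuel use, and several were as large as those of Ppargc1a, Tbc1d4, Prkaa2 and Eci2 or larger. Ccdc141 gave 5.38 and 5.43, against 6.56, 6.78 and 6.53 (-1.22, SE 0.21, adjusted p = 0.0169). Zbtb38, a methyl-CpG-binding repressor, gave -0.92, the casein kinase subunit Csnk2a1 -0.87, Tacc2 -0.83, the TNF receptor family member Relt -0.82, Cnp -0.72, Usp40 -0.70 and the myosin Myh8 -0.66. Zbtb38 was detected on 1 of the 2 WT_VEGFB arrays, so the size of its fall is uncertain. Between -0.59 and -0.46 lay Ppm1l, Gkap1, Paip1, Rragb, Stard10, Agpat2, an enzyme of phospholipid and triglyceride synthesis, Kif21a, Gga1 and Zfp629. Gbx2 was not detected with VEGF-B virus and was at least 1.16-fold lower (adjusted p = 0.0269). For Cnp, Gkap1 and Myh8 a second probe did not share the fall, with 0.08, 0.22 and 0.03. Over all called genes, 152 other probes of 96 genes passed the detection filter, 136 of them with the same sign, and 33 were called on their own.

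The 3 lists of heart muscle genes held no call. None of 18 contractile genes passed in limma, with 1 at an unadjusted p under 0.05 (median -0.04), and the myosin heavy chain gene Myh6 gave 14.33 and 14.27, against 14.11, 14.01 and 14.23 (0.18, adjusted p = 0.435). None of 12 fetal and hypertrophic genes passed, with 0 at an unadjusted p under 0.05 (median 0.00), with Nppa, the natriuretic peptide of stressed heart muscle, at 0.35 (SE 0.28, adjusted p = 0.592). None of 16 listed ion channel genes passed (median -0.26), with 6 at an unadjusted p under 0.05, against 2201 of all 14240 genes. Kcnj11, the pore of the ATP-sensitive potassium channel, came nearest, with 6.17 and 6.24, against 6.79, 7.03 and 6.55 (-0.58, adjusted p = 0.0696). Outside these lists the myosin Myh8 fell, as given above, and the potassium channel genes Kcnj8 (0.88) and Kcnk6 (0.52, adjusted p = 0.0349) rose. The call of Kcnk6 is not among the named calls that were followed with arrays left out or under other settings.

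Several immune and stress lists differed between the 2 WT_VEGFB hearts. Of 17 interferon response genes, Ifitm3, an antiviral membrane protein, rose, with 12.25 and 11.90, against 11.26, 11.18 and 11.46 (0.78, SE 0.16, adjusted p = 0.0257). The mean over these 17 genes was 8.58 and 7.93, against 7.72, 7.67 and 7.79, so WT_VEGFB replicate 1 was the higher by far. The list median of 0.59 ran from 0.23 to 0.86 with 1 of the arrays left out. Over all genes tested 1.75% were called higher. None of 17 antigen presentation genes passed (median 0.53), with 4 at an unadjusted p under 0.05, against 2201 of all 14240 genes. For 15 both WT_VEGFB hearts were higher than any WT_Scramble heart, against 17% of all genes. The median of this list ran from 0.29 to 0.78 with 1 of the arrays left out. The mean over these 17 was 8.72 and 8.29, against 8.06, 7.89 and 7.98. Beside these, the mean over 3 neutrophil markers was 5.88 and 5.38, against 4.67, 4.98 and 5.17, and over 5 macrophage markers 7.53 and 7.37, against 7.07, 7.00 and 7.29. Their part in these lists was not tested. None of 16 immediate early genes passed, with 4 at an unadjusted p under 0.05 (median 0.39), and there WT_VEGFB replicate 2 stood apart. Fos gave 5.12 and 8.09, against 4.81, 6.21 and 6.65, and the median of the list ran from -0.19 to 0.79 with 1 of the arrays left out.

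Of the remaining lists, 13 clock genes held no call, with 1 at an unadjusted p under 0.05 (median 0.07). Ciart, a repressor of the clock, gave 7.34 and 7.03, against 5.52, 6.40 and 5.70 (1.31, SE 0.58, adjusted p = 0.297). Of 17 genes of the cell cycle and replication, Mcm6, a part of the replicative helicase, rose (0.73, SE 0.16, adjusted p = 0.0407; median 0.30). Of 19 chemokines and receptors Cxcr4 rose (median 0.32), and the eosinophil attractant Ccl11 gave -0.98 (adjusted p = 0.0995). Over all genes tested 1.75% were called higher. None of 19 genes of the unfolded protein response (median 0.26) or of 16 of complement and coagulation (0.17) was called, with 2 and 4 at an unadjusted p under 0.05. Without the library that went against its label, Plat, the tissue plasminogen activator of the last list, was called (0.60, adjusted p = 0.034, against 0.108 with it).

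The last question was whether the response differs where endothelial cells lack VEGFR1. The response in wild-type hearts minus that in VEGFR1-deleted hearts was tested in the same model, and limma called none of 14240 genes (0%), with 718 at an unadjusted p under 0.05 and a smallest adjusted p of 0.975. The VEGFR1del_Scramble group holds the library that went against its label, given last of its 3 values here, and it enters each value for VEGFR1-deleted hearts unless said otherwise. Without it the test also called none, with 813 at an unadjusted p under 0.05 and a smallest adjusted p of 0.31. Esm1 had 8.70 and 8.75, against 6.05, 5.98 and 5.67, in wild-type hearts, and 9.63, 9.80, 9.18 and 10.03, against 8.07, 7.75 and 8.36, in VEGFR1-deleted hearts. Its fold change was 2.82 (SE 0.22) in wild-type and 1.60 (SE 0.19) in VEGFR1-deleted hearts, a difference of 1.22 (SE 0.29, adjusted p = 0.975). Without that library it was 1.75 (SE 0.20) in VEGFR1-deleted hearts, a difference of 1.07 (SE 0.29, adjusted p = 0.714).

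Side by side, Pdk4 gave -1.49 in wild-type and -1.31 in VEGFR1-deleted hearts, Ucp3 -1.76 and -1.30, Nrp1 0.55 and 0.48, and Angptl4 -2.12 and -0.96. Zbtb38 gave -0.92 and 0.22, Ppargc1a -0.77 and -0.07, Crem 1.07 and 0.15, and Aqp1 0.59 and -0.16, differences with unadjusted p from 0.000318 to 0.00554 that did not pass the adjustment. Without the library in doubt, the VEGFR1-deleted values were -1.51 for Pdk4, -1.47 for Ucp3, 0.60 for Nrp1, -1.03 for Angptl4, 0.38 for Zbtb38, -0.14 for Ppargc1a, 0.33 for Crem and -0.06 for Aqp1. In VEGFR1-deleted hearts 656 genes were called (4.61%), 401 higher (2.82%) and 255 lower (1.79%), and without that library 1031 (7.3%), 665 higher and 366 lower. Of the 249 genes that rose in wild-type hearts, 247 were above 0 there, as were 48.6% of all genes, and 132 were also called (176 without that library). Of the 35 that fell, 34 were below 0, as were 51.4% of all genes, and 9 were also called (11 without it). The 141 shared calls were 49.6% of the wild-type calls and 21.5% of those in VEGFR1-deleted hearts. The comparisons share no array, but 1 estimate of the spread. The fold change was smaller in VEGFR1-deleted hearts for 235 of the 249 and 34 of the 35, or 210 and 31 without that library, and since these genes were chosen by their wild-type values, no order of the responses is read from that.

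**Figure D5:**
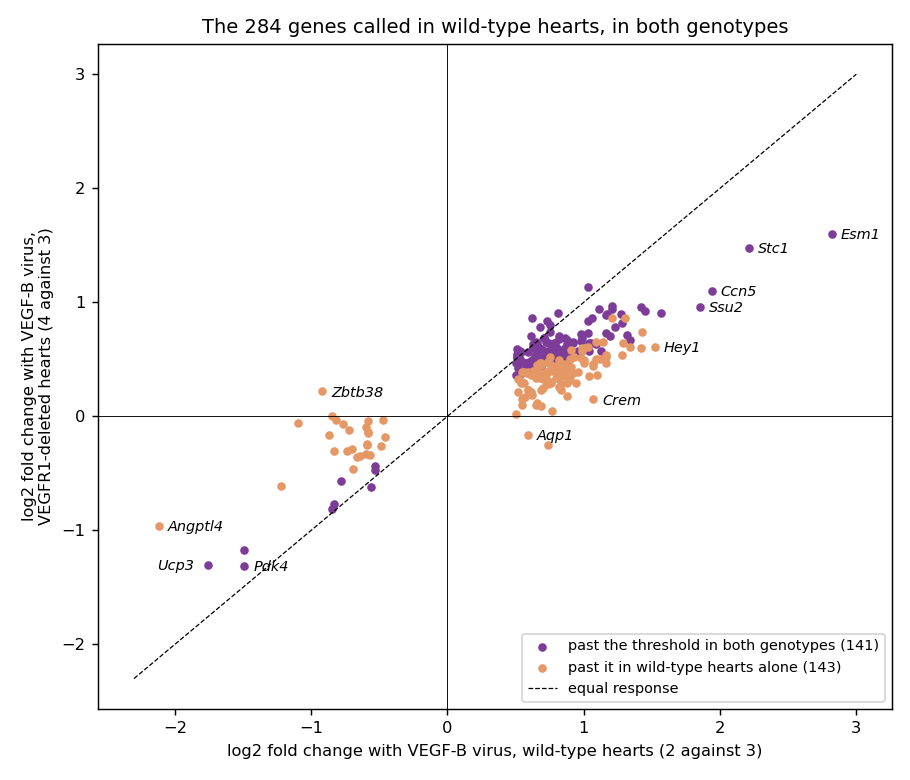
Each dot is 1 of the 284 genes called in wild-type hearts, with its log2 fold change with VEGF-B virus in wild-type hearts on the x axis and in VEGFR1-deleted hearts on the y axis. Purple dots (141) passed the threshold in both genotypes and orange dots (143) in wild-type hearts alone, and most lie between the x axis and the dashed line of equal response.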

How the data were processed

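RNA of the 5 hearts compared and of the other 7 was labelled as biotinylated cRNA and read on Illumina bead arrays, per the labels' protocols. The deposited table gives, per the file headers, a signal intensity, not normalized, and a detection p-value for each of 45281 probes and array. A second deposited table holds the authors' log2 values, which the values show to be quantile normalized in 3 separate sets of arrays. The upstream scanner steps are not given in the sources used here.

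The neqc function of limma 3.58.1 (R 4.3.3, offset 16) corrected the background and made the quantiles of the 12 arrays alike. Probes with a detection p under 0.05 on at least 2 arrays were kept (20312). Symbols came from the platform annotation (34885 probes with 1 symbol, 18 with several and 10378 with none), and the probe with the highest mean stood for a gene, which gave 14240 genes, 11009 with a symbol. Features without a symbol kept their probe name. A mean per group was fitted over the 12 arrays with lmFit and eBayes, tested two-sided with Benjamini-Hochberg adjustment, and called at 0.05. For a gene not detected on any array of a group, the fold is a bound against the detection floor. Plots came from matplotlib 3.10.9 (Python 3.11.15). The fit was tested on simulated data.

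Named genes are the VEGF family, up to 30 largest rises and 30 largest falls among called genes with a symbol and no overlap between groups, the called members of each list and members of smallest p up to 4, and markers. Genes in groups said to be formed after their values were seen, and further genes given as lone values (Fos, Acadm, Lpl, Fabp3, Myh6, Nppa, Ppara, Kcnk6 and the uncalled pericyte and histone genes), fall outside it. The members and lists were chosen with earlier results of these data known.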

Additional observations from a re-analysis of the deposited data

Results flagged for a closer look

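Cxcr4, which rose in wild-type hearts, read 6.9 in VEGFR1del_VEGFB replicate 2, set apart from 7.31 to 7.37 in the other 3 hearts of that group by more of the group's range than Dixon's limit allows. About 1 in 20 groups would be so marked without any cause. The heart is not part of the wild-type comparison.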

How the results depend on the processing

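The number of genes called in wild-type hearts, 284, was 450 without background correction, 439 with a larger offset, 491 with a trended and robust variance, 444 with array weights, 547 on the authors' deposited log2 values, 555 at an adjusted p under 0.10 and 9 at one under 0.01. Scaling to the same median gave 553, 97.3% of them higher against 87.7%, with the median of all genes moved to 0.12. Leaving out 1 of the 5 arrays gave 4 to 161, with fewer samples in the fit, and where WT_VEGFB lost an array the lone one is assumed to vary like the other groups. Of 121 named calls, 3 (Ccn5, Esm1 and Ssu2) held without each of the 5 arrays. Without the library labelled VEGFR1del_Scramble replicate 3 it was 397, and the number called in VEGFR1-deleted hearts was 1031 in place of 656, an alternative added after seeing the data. The test of the difference between genotypes called none under the settings run, apart from 1 gene when a VEGFR1-deleted array was left out (0 to 1).

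Taking the authors' set as a fixed block left 3 calls, of which 1, Esm1, was among the 284. That fit takes the set difference from the VEGFR1del_Scramble group alone, which includes the library that went against its label, and Flt1 then gave -2.73. The median of the tip cell list was then 0.37 and that of PPAR-alpha targets -0.19. With the probe of largest variance 254 genes were called, and 25 of the 121 named calls were lost. That of Gkap1 was reversed, at 0.22 from another probe. With the 5 wild-type arrays alone, normalized over those 5, 211 genes were called, 163 of them among the 284. There 40 of the 121 named calls were lost. Replicate numbers do not pair the hearts by any label, and deviations of same-numbered hearts correlated at 0.02 and 0.03. With the replicate block 275 genes were called. The 2 hearts with VEGF-B virus limit the precision of each value.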

Other observations

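Some genes differed between hearts of 1 group far more than between the groups, and did not pass the test. Pisd-ps3, a pseudogene, read 5.77 in WT_Scramble replicate 2, against 10.51 and 10.35 in replicates 1 and 3. Pisd-ps1 read 4.75 in that heart, against 7.87 and 8.01. Gbp2b, a guanylate-binding protein gene, read 7.29 there, against 4.55 and 4.43. Klra9, a natural killer cell receptor gene, read 6.80 and 6.77 in WT_Scramble replicates 1 and 2, against 4.35 in replicate 3. In all, 23 genes had group means more than 2-fold apart without passing the threshold, and in 5 of them the groups overlapped.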
